A study of Mus musculus with 6 samples.

Results

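Type I interferon-stimulated effector genes are the genes that a cell turns on after it has sensed an interferon, and whose products act against viruses or sense foreign nucleic acid. A list of 32 such mouse genes was examined, without the STAT and IRF transcription factors that drive them. Members were matched by gene symbol, and 30 of the 32 had a row among the 16403 genes of the deposited table. Mx1 and Mx2 were not analysed here, and RefSeq lists both as transcribed pseudogenes on the C57BL/6J reference assembly. All 30 members in the table passed the filter on low counts, which kept 12564 genes in all. The cells were LSK cells, the lineage-negative, Sca-1-positive, Kit-positive fraction of mouse bone marrow, in which blood stem cells and the first multipotent progenitors are found. In the LIP group, C57BL/6 mice with no stated mutation or transgene had ligature-induced periodontitis, a model in which a thread tied around a molar gathers bacteria and inflames the gum. In the NL group, mice of the same strain carried no ligature. Marrow was taken on day 7 in both groups, and each group had 3 libraries of polyA-selected RNA, each pooled from the sorted cells of 3 mice. The sources used here do not give the age or sex of the mice.

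Type I interferons bind a receptor made of IFNAR1 and IFNAR2, which carries the kinases TYK2 and JAK1. The kinases activate transcription factors, among them STAT2, which works with IRF9 at interferon-stimulated response elements in front of the target genes. The products of those genes then bind viral RNA, degrade RNA, block translation, hold virus particles at the membrane or tag proteins with ISG15. In stem and progenitor cells many of these genes are known to be active at a basal level without infection. The comparison of LIP with NL asks how this gene set stood in progenitors far from the inflamed gum.

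The promoters of the genes that changed, and of the uncalled members with the highest levels, are shown first because the pathway acts through an element in front of its target genes. RefSeq windows on GRCm38.p6, each reaching from 250 bases before to 50 bases after a start site, were on hand for 22 of the 30 members, as 25 windows. Usp18, Parp14, Rtp4, Dhx58, Ifi204, Zbp1, Ifi27l2a and Oas2 had no window. The core of the response element was searched as GAAANNGAAA on both strands. It was found in 15 of the 25 windows of members, or 60%, and in 1131 of 32851 windows of all genes, or 3.44%. Counted by gene, 14 of the 22 members had a match. The gamma-activated site, searched as TTCNNNGAA, a motif that reads the same on both strands, was found in 5 of the 25 windows, or 20%, against 8.30% of all windows. A match describes the letters of the window and is no measurement of binding.

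Of the 5 members that fell in LIP, 3 had a window. Their sequence is given 5′ to 3′ on the strand of the gene, in lower case, with matches to the element core in capitals. The first sequences are the 200 bases before the start site of Oas1a and Oasl1.
Oas1a (chr5:120907526-120907725, minus strand): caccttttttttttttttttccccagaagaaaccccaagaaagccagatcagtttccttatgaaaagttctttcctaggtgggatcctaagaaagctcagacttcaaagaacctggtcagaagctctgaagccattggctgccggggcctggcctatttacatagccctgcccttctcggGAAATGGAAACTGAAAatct
Oasl1 (chr5:114923040-114923239, plus strand): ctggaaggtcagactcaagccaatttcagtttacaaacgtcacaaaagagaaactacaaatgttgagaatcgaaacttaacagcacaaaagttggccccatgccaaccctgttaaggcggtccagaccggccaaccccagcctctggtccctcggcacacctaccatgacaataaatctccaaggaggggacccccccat

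Oas1a carried overlapping matches close to its start site, and Oasl1 carried none in its window. The matches of Ifitm3 lay just after its start site, and the 27 bases that hold both of them are shown.
Ifitm3 (chr7:141010716-141010742, minus strand): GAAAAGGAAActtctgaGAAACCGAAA

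The same 200 bases are shown for the uncalled members with the highest levels in these cells, Bst2, Sp100, Trim30a and Oasl2. Sp100 and Trim30a each had more than one start site in the table, and one is shown for each.
Bst2 (chr8:71537473-71537672, minus strand): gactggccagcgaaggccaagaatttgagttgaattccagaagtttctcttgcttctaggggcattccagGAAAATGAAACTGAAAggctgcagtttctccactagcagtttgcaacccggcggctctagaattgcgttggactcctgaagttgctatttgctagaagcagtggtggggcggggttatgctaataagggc
Sp100 (chr1:85649788-85649987, plus strand): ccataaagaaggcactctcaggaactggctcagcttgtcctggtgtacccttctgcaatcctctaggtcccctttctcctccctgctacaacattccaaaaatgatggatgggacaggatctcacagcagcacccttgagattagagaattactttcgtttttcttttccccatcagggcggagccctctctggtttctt
Trim30a (chr7:104465194-104465393, minus strand): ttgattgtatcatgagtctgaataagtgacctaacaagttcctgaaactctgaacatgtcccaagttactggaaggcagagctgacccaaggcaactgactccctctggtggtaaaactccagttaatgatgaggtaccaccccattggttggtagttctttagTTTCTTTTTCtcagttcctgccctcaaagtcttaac
Oasl2 (chr5:114896734-114896933, plus strand): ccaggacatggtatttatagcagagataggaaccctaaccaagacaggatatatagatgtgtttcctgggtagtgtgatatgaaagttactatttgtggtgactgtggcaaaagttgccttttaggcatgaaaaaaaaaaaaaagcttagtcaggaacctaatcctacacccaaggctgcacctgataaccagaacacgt

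Bst2 carried overlapping matches, Trim30a carried 1 match on the opposite strand, and Sp100 and Oasl2 carried none. Of the members with a window, 2 of the 3 that fell and 12 of the 19 that were not called held a match. Isg15 and 3 IFIT genes are added, a choice made after their values were seen. Isg15 is the gene after which the tagging system is named, and Ifit3 and Ifit3b appear to share reads.
Isg15 (chr4:156200819-156201018, minus strand): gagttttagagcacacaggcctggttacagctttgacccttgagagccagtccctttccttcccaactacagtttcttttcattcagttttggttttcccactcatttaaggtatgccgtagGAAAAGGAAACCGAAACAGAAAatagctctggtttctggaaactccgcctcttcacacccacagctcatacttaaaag
Ifit1 (chr19:34640689-34640888, plus strand): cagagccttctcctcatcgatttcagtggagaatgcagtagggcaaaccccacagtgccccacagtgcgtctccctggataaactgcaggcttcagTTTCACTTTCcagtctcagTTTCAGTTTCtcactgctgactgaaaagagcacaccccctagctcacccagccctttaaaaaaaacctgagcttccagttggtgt
Ifit3 (chr19:34583329-34583528, plus strand): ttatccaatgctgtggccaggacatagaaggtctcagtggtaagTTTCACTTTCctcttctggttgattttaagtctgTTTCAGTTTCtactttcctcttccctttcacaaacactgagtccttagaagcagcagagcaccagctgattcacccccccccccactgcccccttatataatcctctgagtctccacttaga
Ifit3b (chr19:34607757-34607956, plus strand): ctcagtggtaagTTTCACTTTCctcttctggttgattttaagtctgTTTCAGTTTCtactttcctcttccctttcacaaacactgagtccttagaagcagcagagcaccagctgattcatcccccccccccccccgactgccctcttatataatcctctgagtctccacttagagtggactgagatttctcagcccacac

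Isg15 held a chain of 3 overlapping matches. Ifit3 and Ifit3b shared an identical run of 169 bases, from 218 to 50 bases before the start site of Ifit3 and from 250 to 82 bases before that of Ifit3b. Both element cores of each gene lie within that run.

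Library totals lay between 17780853 and 18841103 counts, and CPM is the count scaled by library size and TMM factor. A floor of 3 counts was worth 0.157 to 0.171 CPM. Both positive markers of the sort were present. Kit had a mean of 512 CPM in NL and 581 CPM in LIP and was called higher (log2 fold change 0.18, edgeR adjusted p = 8.16e-06), and Ly6a, which encodes Sca-1, had means of 38.7 and 37.0 CPM and was not called. The 8 LSK markers summed to between 2431 and 2454 CPM in NL and between 2495 and 2538 CPM in LIP. Markers of other cell types were also read. The 12 monocyte and macrophage markers summed to between 1068 and 1097 CPM in NL and between 1318 and 1367 CPM in LIP, with 8 called higher and 1 lower. The 9 neutrophil markers summed to between 216 and 232 CPM in NL and between 309 and 330 CPM in LIP. The 8 that were tested were all called higher, and the untested one, Ly6g, had at most 3 counts in any library. B-cell markers summed to 51.9 to 55.5 CPM in NL and 64.1 to 66.5 CPM in LIP. For T and NK markers the sums were 136 to 146 CPM in NL and 153 to 167 CPM in LIP. For stroma and endothelium markers they were 93.1 to 96.4 and 105 to 107 CPM. Of those tested, 2 of 5, 3 of 8 and 1 of 4 were called higher, and 1 stroma and endothelium marker lower. Most of the T and NK sum was Nkg7 alone, with means of 125 CPM in NL and 140 CPM in LIP. Most of the stroma and endothelium sum was Pdgfrb alone, with means of 72.6 CPM in NL and 86.0 CPM in LIP. The sums of erythroid and megakaryocyte markers overlapped between the groups. The part of these shifts in the differences of the interferon-stimulated genes was not tested.

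The members differed widely in level in these progenitors. Levels are compared between genes in the authors' TPM, a share of all transcripts that is scaled to gene length. Ifitm3, which encodes a membrane protein that blocks virus entry, was the most abundant member. Its TPM values were 485, 444 and 441 in the NL libraries and 430, 407 and 447 in the LIP libraries, and the groups overlapped on this scale. Bst2, which encodes tetherin, a protein that holds budding virus particles on the cell surface, had TPM values of 135, 129 and 141 in NL and 144, 145 and 145 in LIP. The LIP values of Bst2 lay above the NL values in TPM, a scale on which most genes read higher in LIP. Sp100, a protein of nuclear bodies, had TPM values of 79.7, 82.1 and 75.2 in NL and 87.7, 94.7 and 87.1 in LIP, again without overlap. Oas1a, an oligoadenylate synthetase that makes the second messenger for RNase L, had TPM values of 54.9, 57.9 and 57.7 in NL and 47.5, 47.9 and 50.9 in LIP. Its LIP values all lay below its NL values. Trim30a, a TRIM protein known to restrain inflammatory signalling, had TPM values of 41.9, 41.9 and 41.8 in NL and 43.2, 45.2 and 41.1 in LIP, and its groups overlapped. The spread over libraries set most of these genes apart from each other, but Trim30a, Rtp4 at a mean of 41.7 TPM and Oasl2 at 38.5 TPM lay close together.

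At the low end stood the RNA-binding IFIT genes Ifit3 and Ifit3b, at means of 2.24 and 0.435 TPM over the 6 libraries. The median over the 30 members was 15.1 TPM, and over all tested genes it was 21.3 TPM. Ifitm3 alone therefore supplied a large share of the list's summed level, which lay between 1127 and 1180 TPM in NL and between 1120 and 1151 TPM in LIP.

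**Figure D1:**
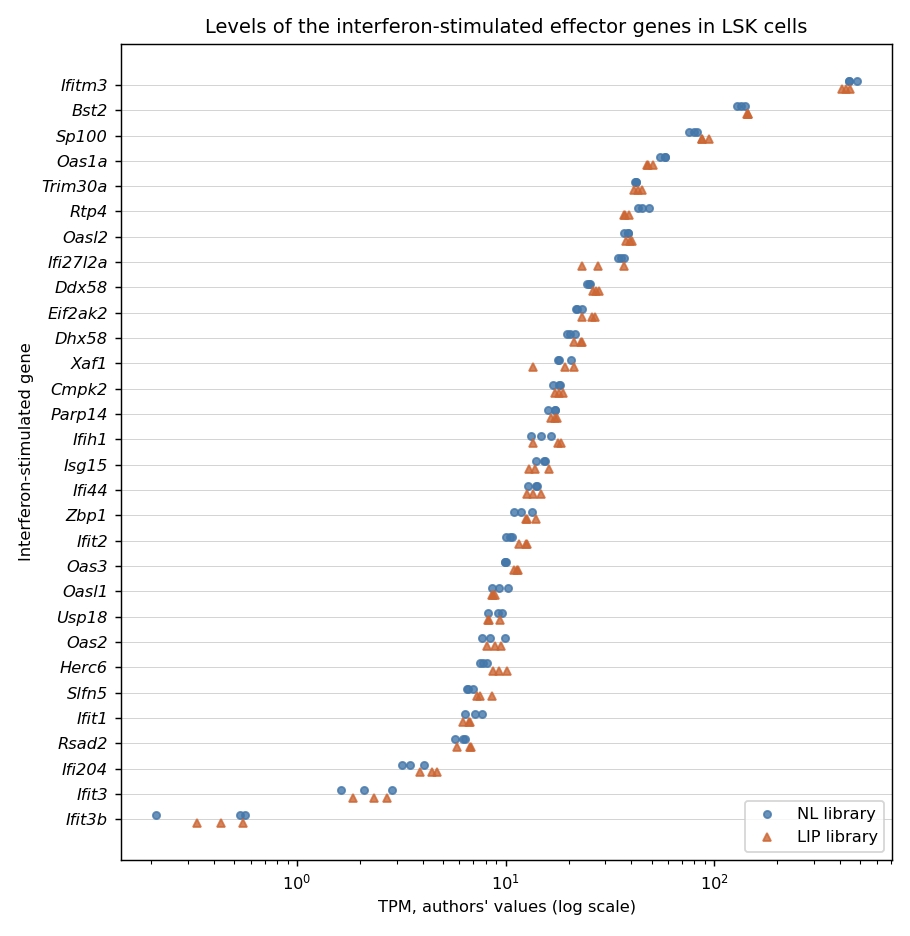
Level of each of the 30 genes in TPM (horizontal log axis), with 1 point per library (circles NL, triangles LIP), genes ordered by their mean over the 6 libraries. Ifitm3 is highest at a mean of 442 TPM and Ifit3b lowest at 0.435 TPM, and for most genes the points of both groups lie close together.

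None of the 30 members rose in LIP in the reported fit and 5 fell: Rtp4, Oas1a, Ifitm3, Ifi27l2a and Oasl1. The other 25 were not called by edgeR's quasi-likelihood test with Benjamini-Hochberg adjustment over all 12564 genes, which calls a gene at an adjusted p below 0.05. The fallen members were 16.7% of the list, close to the background, since 15.8% of all tested genes fell and 29.9% changed in either direction. No member rose, against 14.1% of all tested genes, and DESeq2 and limma-voom also called none higher. At an unadjusted p below 0.05, 1 member was higher, Herc6, or 3.33% against 18.9% of all tested genes, and 9 were lower, or 30% against 20.8%. The LIP libraries lay below all NL libraries for 8 members, or 26.7%, against 21% of all tested genes, and above them for 2 members, or 6.67%, against 19.9%. The median log2 fold change was -0.085 over the members, which ran from -0.42 to 0.15, and -0.00072 over all tested genes. In 21 of the 30 members the estimate was negative, or 70%, against 50.2% of all tested genes. In these bulk libraries a smaller number of expressing cells and less RNA per cell cannot be told apart. Pools were the replicates, and the sources used here do not say whether they were sorted on the same day.

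The changes were small, and the intervals were narrow enough to bound them. For 28 of the 30 members, or 93.3%, the 95% confidence interval of the fold change lay within 1.5-fold in either direction, against 87.2% of all tested genes. The exceptions were Ifi27l2a and Ifit3b. No uncalled member reached a log2 fold change of 0.3 in either direction. Library by library, the median deviation of the members from their NL mean was 0.018, 0.0054 and 0.0028 in NL and -0.042, -0.044 and -0.062 in LIP, on the log2 CPM scale. All 3 LIP libraries therefore lay below all 3 NL libraries. Summed over the members, the level was between 1115 and 1143 CPM in NL and between 1069 and 1074 CPM in LIP. Without the 5 members that fell, the sums overlapped, at 854 to 865 CPM in NL and 835 to 862 CPM in LIP. The median deviation of those 25 uncalled members did not overlap, at 0.0135, 0.00704 and 0.0210 in NL and -0.0301, -0.0319 and -0.0175 in LIP.

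The sign of the median depended on the scale. In the authors' TPM the median over all tested genes moved up by 0.11 on the log2 scale in LIP, and 4568 of the genes called by limma on log2(TPM + 1) were higher and 540 lower. The members' median on that scale was 0.042, which is 0.068 below that of all tested genes. On that scale Bst2, Eif2ak2, Herc6, Ifit2, Oas3 and Sp100 were called higher and Rtp4 and Oas1a lower. With total counts in place of TMM factors, where the median of all tested genes was 0.044 and 67.9% of calls were higher against 47.2% with TMM, Herc6 and Sp100 were called higher. The lower calls of Rtp4 and Oas1a held on each of these scales.

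**Figure D2:**
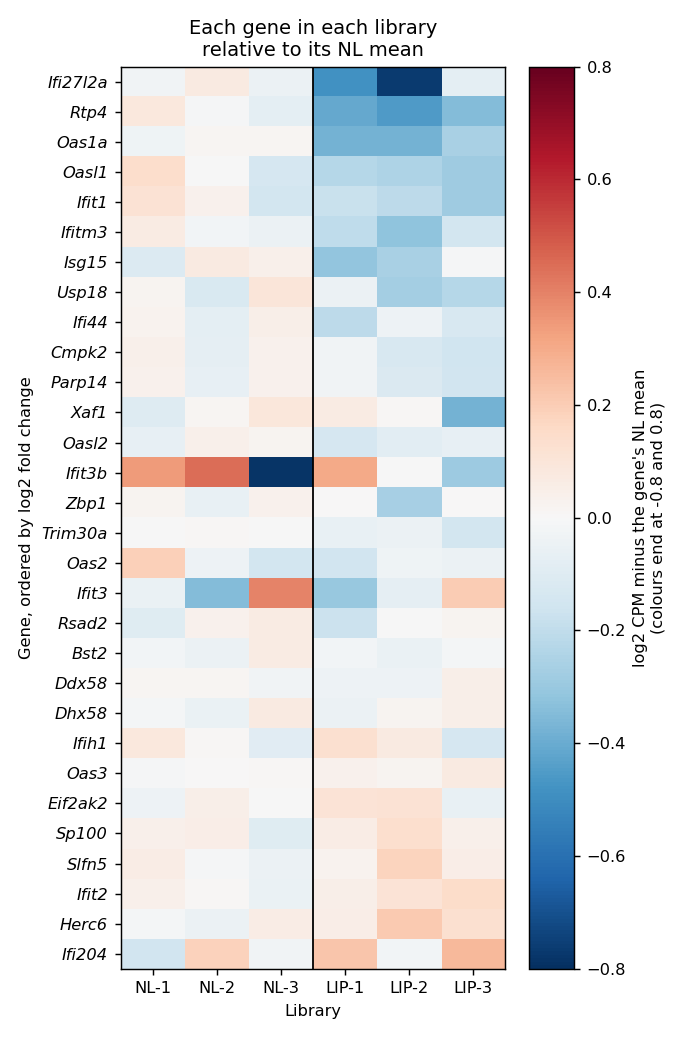
Log2 CPM of each member in each library minus its mean over the NL libraries, as a heat map (rows: genes from the lowest to the highest log2 fold change; columns: libraries; blue lower, red higher; colours end at -0.8 and 0.8). Rtp4, Ifi27l2a and Oas1a at the top are blue in the LIP columns, with LIP-3 pale for Ifi27l2a. Ifit3 and Ifit3b, which appear to share reads, vary within both groups, and most other rows are pale in every column.

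Rtp4 encodes a chaperone of receptor proteins that is strongly induced by interferon (gene on chromosome 16, 23520219 to 23614222, GRCm38.p6). It had 44.1, 41.3 and 39.3 CPM in the NL libraries and 31.2, 30.3 and 32.6 CPM in the LIP libraries. Every LIP library lay below every NL library. Its mean fell from 41.6 ± 2.41 to 31.4 ± 1.18 CPM (SD, n = 3), a log2 fold change of -0.41 ± 0.06 (SE; edgeR adjusted p = 3.49e-08), so that NL was 1.32-fold higher. Its call held under all 22 alternatives. The gene span overlaps that of Masp1, which was not analysed here, and no source used here gives the strand setting of the authors' counting.

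Oas1a lies on chromosome 5 (120896256 to 120907544). It had 49.0, 50.7 and 50.7 CPM in the NL libraries and 38.5, 38.5 and 41.9 CPM in the LIP libraries, without overlap. Its mean fell from 50.1 ± 0.984 to 39.6 ± 1.92 CPM (SD, n = 3), a log2 fold change of -0.34 ± 0.05 (SE; edgeR adjusted p = 2.83e-07). Its counts were not whole, and it appears to share reads with a close copy, Oas1g. Such sharing was inferred, here and for other pairs, only from 2 genes whose counts add up to whole numbers. Of the 11 members without whole counts, 4 had 1 such partner, 6 had none and 1 had several candidates. The counts of Oas1a and Oas1g added up to whole numbers in all 6 libraries, 953, 953 and 985 in NL and 762, 814 and 882 in LIP, to within 0.015 counts. Fitted as 1 gene, the pair had a log2 fold change of -0.33 ± 0.05 (edgeR adjusted p = 2.29e-07), close to that of Oas1a alone.

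Ifitm3, the most abundant member (chromosome 7, 141009590 to 141010744), had 164, 154 and 152 CPM in the NL libraries and 136, 125 and 141 CPM in the LIP libraries. No LIP library reached the lowest NL library. Its mean fell from 156 ± 6.35 to 134 ± 8.04 CPM (SD, n = 3), a log2 fold change of -0.22 ± 0.04 (SE; edgeR adjusted p = 8.98e-06). With an offset for each library's trend on transcript length the estimate was -0.047 and the call was lost (adjusted p = 0.346). It was also lost on the TPM scale.

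Ifi27l2a, a small interferon-induced protein of the Ifi27 family (chromosome 12, 103433873 to 103443680), had 8.08, 8.68 and 7.97 CPM in the NL libraries and 5.86, 4.81 and 7.79 CPM in the LIP libraries. LIP-3 lay just under the lowest NL library, and the other LIP libraries lay clearly below. Its mean fell from 8.25 ± 0.383 to 6.15 ± 1.51 CPM (SD, n = 3), a log2 fold change of -0.42 ± 0.12 (SE; edgeR adjusted p = 0.00756). Its value rested on single libraries: it was -0.27 without LIP-2 (adjusted p = 0.111), -0.63 without LIP-3, and not called without NL-2 (adjusted p = 0.0551). It also missed the threshold under DESeq2 (adjusted p = 0.0524), with the length offset (adjusted p = 0.252) and on the TPM scale. Its span overlaps that of Ifi27, which fell by 0.25 on the log2 scale from a mean of 47.4 CPM in NL.

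Oasl1, an oligoadenylate synthetase-like protein without synthetase activity (chromosome 5, 114923143 to 114937911), had 13.4, 12.1 and 11.1 CPM in the NL libraries and 10.4, 10.2 and 9.98 CPM in the LIP libraries. The groups did not overlap, but NL-3 and LIP-1 lay close together. Its mean fell from 12.2 ± 1.17 to 10.2 ± 0.210 CPM (SD, n = 3), a log2 fold change of -0.26 ± 0.09 (SE; edgeR adjusted p = 0.0242). The call was lost without NL-1 (adjusted p = 0.188), without NL-2 (0.0604), without LIP-2 (0.0540) and without LIP-3 (0.0741), and under DESeq2 (0.125). It was also lost with total counts and on the TPM scale.

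**Figure D3:**
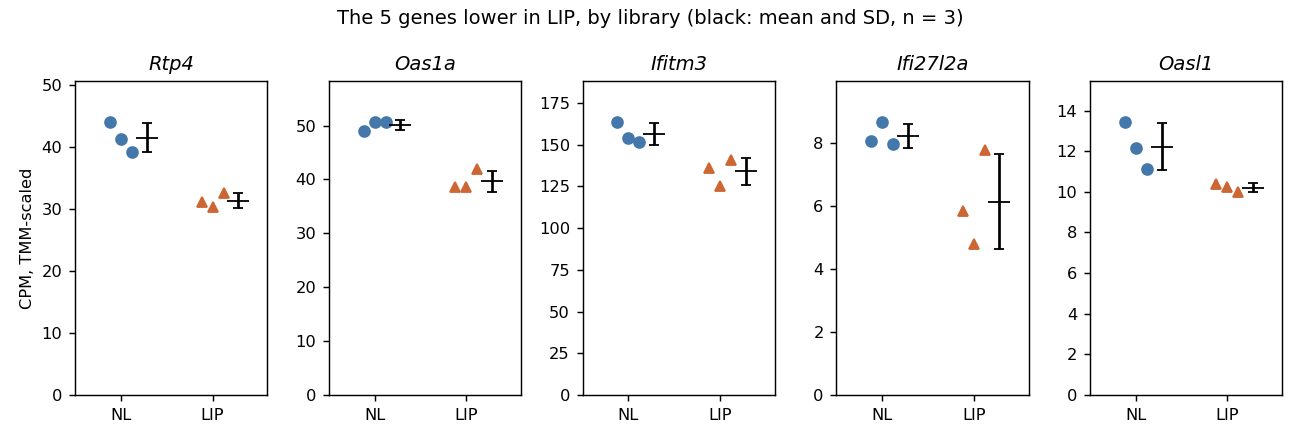
CPM, scaled with TMM factors, of the 5 members that fell, 1 panel per gene with its own vertical axis from 0, 1 point per library, and black bars for mean and SD of 3 libraries. The NL and LIP points do not overlap in any panel, and in Ifi27l2a the highest LIP library, at 7.79 CPM, lies just below the lowest NL library, at 7.97 CPM.

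The sensors that detect foreign RNA or DNA showed no call in any of their 5 members. Ddx58, which encodes the RNA sensor RIG-I, had 75.0, 75.0 and 72.9 CPM in NL and 72.3, 72.2 and 76.8 CPM in LIP, with overlapping groups. Its log2 fold change was -0.010 (edgeR adjusted p = 0.890). Ifih1, which encodes the long double-stranded RNA sensor MDA5, had a log2 fold change of 0.022 (adjusted p = 0.822). Dhx58, which encodes the regulator LGP2, stood at 0.0078 (adjusted p = 0.945). Zbp1, a sensor of left-handed nucleic acid that can trigger necroptosis, stood at -0.085 (adjusted p = 0.581). Ifi204, a DNA sensor of a family of near-identical genes whose counts were not whole, stood at 0.15 ± 0.13 (SE; adjusted p = 0.413), the highest estimate of the list. The sensor group therefore had a median of 0.0078 and intervals within 1.5-fold for each member.

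The 4 IFIT genes of the list lie side by side on chromosome 19, and the IFIT1 protein binds viral RNA that lacks the methyl marks of host messages. None of the 4 was called, and they did not share a sign. Ifit1 (34640889 to 34650009) had 11.9, 11.2 and 9.90 CPM in the NL libraries and 9.68, 9.46 and 8.99 CPM in the LIP libraries. Its groups did not overlap, yet its log2 fold change of -0.23 ± 0.10 (SE) missed the threshold (edgeR adjusted p = 0.0561). It was called lower without NL-3, at -0.30 (adjusted p = 0.0273). Ifit2 (34550550 to 34576534) had 25.4, 24.9 and 23.8 CPM in NL and 25.5, 26.7 and 27.4 CPM in LIP. Here the LIP libraries lay just above the NL libraries, with a log2 fold change of 0.10 (adjusted p = 0.203). The count ratio of Ifit1 to Ifit2 within a library was 0.446 ± 0.0269 in NL and 0.354 ± 0.0257 in LIP (SD, n = 3), a ratio picked after the values were seen. The exact two-sided permutation test gave p = 0.1, the smallest that 3 against 3 libraries allow, and an adjusted p of 0.2 over the 6 ratios computed.

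Ifit3 and Ifit3b cannot be read apart with confidence. Neither had whole counts, while their sum was whole in every library, at 53, 46 and 62 counts in NL and 47, 54 and 62 counts in LIP. Those sums overlapped between the groups. As 1 gene the pair had a log2 fold change of -0.078 (edgeR adjusted p = 0.779). Singly, Ifit3 stood at -0.074 ± 0.19 and Ifit3b at -0.093 ± 0.42 (SE), the least precise estimate of the list. The spans of Ifit1 and Ifit3b also overlap that of Ifit1bl1, which had a mean of 1.69 CPM in NL.

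The oligoadenylate synthetase family and PKR, which act in the response to double-stranded RNA, did not share a sign of change. Of 6 members, Oas1a and Oasl1 fell and 4 were not called, where 15.8% of all tested genes fell. Oas3 (chromosome 5, 120753098 to 120777684), which lies near Oas1a and makes the same messenger, had 28.01, 28.3 and 28.4 CPM in NL and 28.9, 28.7 and 29.7 CPM in LIP. Its LIP libraries lay slightly above its NL libraries, and its log2 fold change was 0.041 with an interval from -0.07 to 0.16 (edgeR adjusted p = 0.637). The interval of Oas1a, from -0.44 to -0.24, did not meet it. The count ratio of Oas1a to Oas3 was 1.75, 1.79 and 1.78 in the NL libraries and 1.33, 1.35 and 1.41 in the LIP libraries. That ratio within a library needs no scaling between libraries, but it does not remove a library's trend on transcript length. Its groups did not overlap (exact two-sided permutation p = 0.1, the smallest possible, with an adjusted p of 0.2 over 6 ratios). The ratio was chosen after the values were seen and is given as a description.

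Oas2 (120730333 to 120749886), the synthetase gene next to Oas3, had 20.7, 17.5 and 16.3 CPM in NL and 16.3, 17.7 and 17.5 CPM in LIP. One NL library, NL-1, stood above the rest, and the estimate was -0.084 (adjusted p = 0.451) with all libraries and 0.022 without NL-1. Oasl2 (114896926 to 114912245), the neighbour of Oasl1, had 54.9, 59.1 and 58.2 CPM in NL and 52.4, 54.2 and 54.9 CPM in LIP. The highest LIP library and the lowest NL library were nearly equal, and its log2 fold change of -0.093 was not called (adjusted p = 0.122). Eif2ak2, which encodes the kinase PKR, had a log2 fold change of 0.055 (adjusted p = 0.407).

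Among the factors that act at membranes or on replication, 1 of the 4 measured members fell, Ifitm3, and 3 were not called. Over all tested genes, 15.8% fell. Bst2 had 55.4, 54.3 and 58.9 CPM in NL and 55.4, 54.1 and 55.5 CPM in LIP, with overlapping groups. Its log2 fold change was -0.031 (edgeR adjusted p = 0.658), and it turned to 0.12 with the length offset (adjusted p = 0.0469). Bst2 is also a marker of plasmacytoid dendritic cells. The other 8 markers of that cell type summed to between 462 and 471 CPM in NL and between 521 and 540 CPM in LIP. Of the 7 others tested, 3 were called higher and 1 lower, and Klk1, not tested, had at most 2 counts in any library. Most of the sum came from Irf8, Tcf4 and Runx2, with means of 199, 121 and 101 CPM in NL and 243, 122 and 123 CPM in LIP. Siglech, called higher, had means of 3.39 and 5.14 CPM, and Ccr9, called lower, 20.5 and 16.8 CPM. The part of plasmacytoid dendritic cells in the value of Bst2 was not tested. The neighbours Rsad2, which encodes the radical enzyme viperin, and Cmpk2, a nucleotide kinase, lie side by side on chromosome 12 and had log2 fold changes of -0.047 (adjusted p = 0.721) and -0.11 (adjusted p = 0.152).

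The ISG15 system attaches the ubiquitin-like protein ISG15 to other proteins and removes it again. None of its 3 listed members was called. Isg15 (chromosome 4, 156199424 to 156200818), the tag itself, had 5.64, 6.41 and 6.26 CPM in NL and 4.87, 5.07 and 6.06 CPM in LIP. LIP-3 lay within the NL range and the other LIP libraries lay below it, with a log2 fold change of -0.19 ± 0.12 (SE; edgeR adjusted p = 0.256). Usp18, the protease that removes the tag and also dampens the receptor, stood at -0.19 (adjusted p = 0.172). Herc6, the ligase that attaches it in mice, had 24.6, 24.1 and 25.8 CPM in NL and 25.7, 28.8 and 27.1 CPM in LIP. Its groups overlapped narrowly, and its log2 fold change of 0.13 was not called (adjusted p = 0.0975).

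Of the 8 other effectors, Rtp4 and Ifi27l2a fell and 6 were not called, where 15.8% of all tested genes fell. Trim30a had 94.7, 95.5 and 94.8 CPM in NL and 91.0, 92.1 and 85.8 CPM in LIP, below NL in every library, with a log2 fold change of -0.084 (edgeR adjusted p = 0.0991). With the length offset it was called lower, at -0.11 (adjusted p = 0.0292). It appears to share reads with Trim30d, and as 1 gene the pair stood at -0.078 (adjusted p = 0.103). Sp100 had 131, 132 and 119 CPM in NL and 132, 140 and 131 CPM in LIP, with overlap, and its estimate was 0.076 (adjusted p = 0.130). Parp14, an ADP-ribosyltransferase, stood at -0.10 (adjusted p = 0.0731). It was called lower with the length offset, at -0.15 (adjusted p = 0.00446), without NL-2, at -0.13 (0.0469), and without LIP-1, at -0.14 (0.0308). Ifi44 stood at -0.12 (adjusted p = 0.150). Xaf1, a factor linked to apoptosis, stood at -0.094 (adjusted p = 0.464), and at 0.035 without LIP-3. Slfn5, a Schlafen family member, stood at 0.089 (adjusted p = 0.304).

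**Figure D4:**
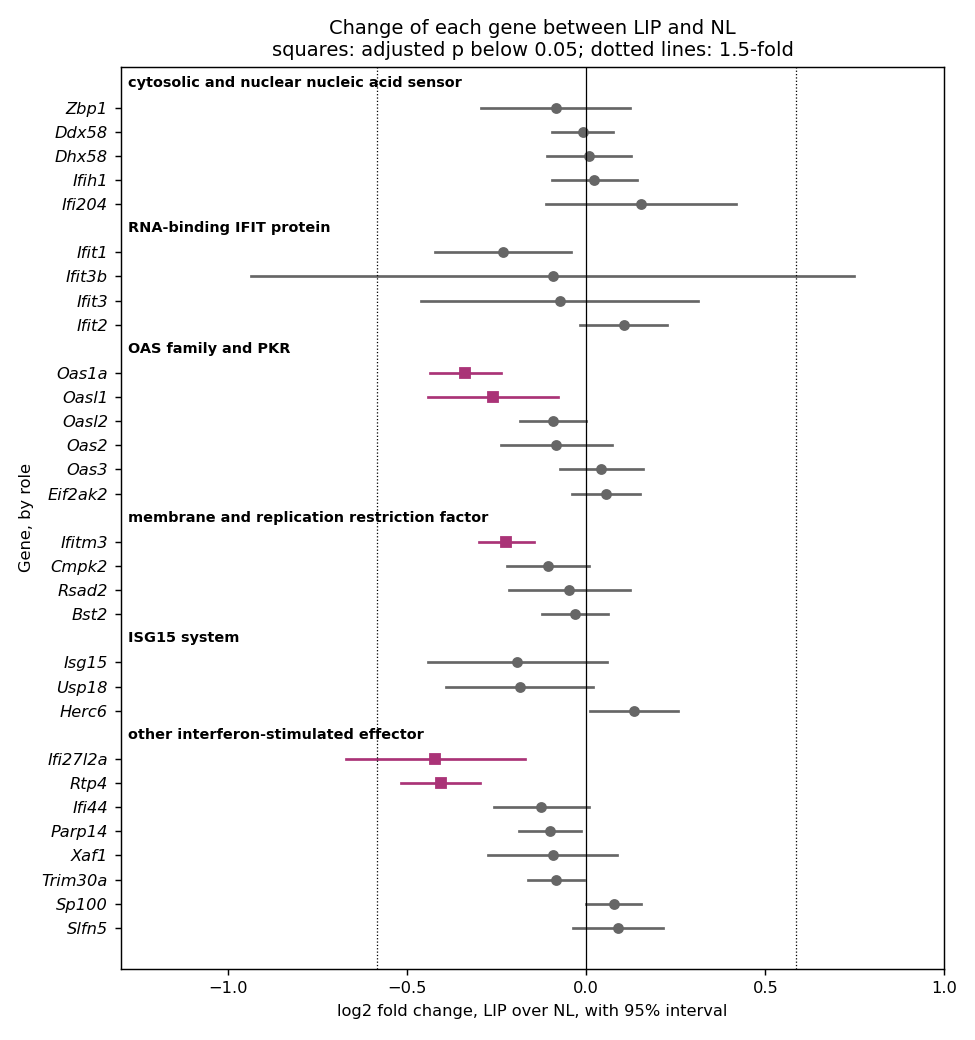
Log2 fold change of LIP over NL (horizontal axis) of the 30 members grouped by role, with lines for the 95% confidence interval, squares for the 5 members past the adjusted threshold and dotted lines at 1.5-fold. All squares lie left of 0, the sensors sit close to 0, and Ifit3b has by far the widest interval.

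The rest of the pathway was read from a list of 91 further genes, of which 84 were in the table and 83 were tested. In LIP 14 fell, or 16.9%, and 12 rose, or 14.5%, against 15.8% and 14.1% of all tested genes. The median log2 fold change was -0.029. Of the interferon ligands only Ifnk was in the table, with 1 count in NL-2 and none elsewhere, so it was not tested, and the other 6 listed ligands were not analysed here.

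At the receptor, neither chain was called. Ifnar1 had a log2 fold change of -0.043 (edgeR adjusted p = 0.439) and Ifnar2 of -0.070 (adjusted p = 0.127). Of the receptor kinases, Tyk2 rose, from 76.9, 80.6 and 78.3 CPM in NL to 87.3, 84.5 and 86.2 CPM in LIP, without overlap (log2 fold change 0.13, adjusted p = 0.0105). Jak1 was not called, at 0.052 (adjusted p = 0.221). Stat2 and Irf9, which act at the response element, both fell. Stat2 fell from 45.6, 46.8 and 49.9 CPM in NL to 40.0, 42.0 and 40.9 CPM in LIP, a log2 fold change of -0.21 ± 0.05 (SE; edgeR adjusted p = 9.61e-04). Irf9, its DNA-binding partner, fell from 97.1, 94.5 and 98.5 CPM to 87.1, 88.9 and 84.4 CPM, a log2 fold change of -0.16 ± 0.04 (adjusted p = 0.00154). Neither gene's groups overlapped. Irf7, the factor that amplifies interferon production, stood at 0.011 (adjusted p = 0.920). The calls of Stat2 and Irf9 were lost on the TPM scale.

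Another 13 genes were listed for nucleic acid sensing and the signalling from it to interferon production. Of these 2 rose and none fell, against 14.1% and 15.8% of all tested genes. Tlr9, the receptor for unmethylated DNA, rose from 2.56, 2.72 and 1.99 CPM in NL to 4.20, 4.03 and 4.39 CPM in LIP (log2 fold change 0.79, edgeR adjusted p = 1.15e-04). Ikbke, a kinase that activates IRF3, rose by 0.14 on the log2 scale (adjusted p = 0.0405). Of the 6 genes listed as inhibitors, 1 fell: Tsc22d3, better known as the glucocorticoid-induced gene GILZ, from 157, 167 and 167 CPM in NL to 122, 121 and 122 CPM in LIP (log2 fold change -0.43, adjusted p = 8.26e-15). The suppressors Socs1 and Socs3 were among the 5 not called.

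Among the 57 tested genes grouped as other interferon-induced genes, 11 fell and 9 rose, where 15.8% and 14.1% of all tested genes did so. Samd9l, known to restrain the growth of blood cells, fell from 99.4, 99.6 and 103 CPM in NL to 79.6, 81.1 and 80.2 CPM in LIP (log2 fold change -0.33, edgeR adjusted p = 1.17e-09). Ube2l6, the enzyme that carries ISG15 to its ligases, fell by 0.24. Gm4951 fell by 0.39, Ifi205 by 0.29, Ifi27 by 0.25, Slfn8 by 0.22, Isg20 by 0.22, Epsti1 by 0.18, Pnpt1 by 0.15, Ifi203 by 0.12 and Ifitm2 by 0.098, all on the log2 scale. Ifitm2 turned with the length offset, where it was called higher at 0.084 (adjusted p = 0.0338). Slfn1, a Schlafen gene, rose by 0.73, from 1.54, 1.59 and 2.11 CPM in NL to 3.10, 3.08 and 2.51 CPM in LIP. Its family members went both ways, since Slfn2 rose by 0.25 while Slfn8 fell. The other rises on the log2 scale were Ms4a4c by 0.30, Ddx60 by 0.24, Znfx1 by 0.23, Pml by 0.15, Shisa5 by 0.14, Samhd1 by 0.13 and Ly6e by 0.10.

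Not all of these 26 calls were firm. Those of Pml, Samd9l, Samhd1, Slfn1, Slfn2, Tlr9, Tsc22d3, Ube2l6 and Znfx1 held under every alternative run. Without NL-1 the calls of Ddx60, Gm4951, Ifi203, Ifi205, Ifitm2, Ikbke, Pnpt1 and Tyk2 were lost (edgeR adjusted p from 0.0528 to 0.249). Without NL-2 those of Ddx60, Ifi205, Ifitm2, Ikbke and Ly6e were lost (0.0555 to 0.106), and without NL-3 those of Ddx60, Ifi205, Isg20, Ly6e and Shisa5 (0.0512 to 0.174). Without LIP-1 those of Ddx60, Ifi205, Ikbke and Ly6e were lost (0.0784 to 0.177), without LIP-2 those of Ddx60, Ifitm2, Ikbke and Isg20 (0.0598 to 0.262), and without LIP-3 those of Gm4951, Ifi205, Ikbke, Ly6e, Ms4a4c and Pnpt1 (0.0568 to 0.187). DESeq2 lost the calls of Ddx60, Gm4951, Ifi205, Ifitm2, Ikbke, Isg20, Ms4a4c and Pnpt1 (adjusted p from 0.0626 to 0.177). Total counts lost those of Ifi203, Ifi205, Ifitm2, Isg20 and Pnpt1 (0.0526 to 0.238), and the length offset those of Ddx60, Ifi205, Ikbke, Isg20 and Tyk2 (0.0521 to 0.229). On the TPM scale those of Epsti1, Gm4951, Ifi205, Ifi27, Irf9, Isg20, Pnpt1, Slfn8 and Stat2 were lost (0.0624 to 0.736), and Ifi203 and Ifitm2 turned in sign.

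The members' median under each way of processing the counts is shown in the plot of medians by setting. It was negative in all of the alternatives but one, the TPM scale, and under each of them it lay below the median of all tested genes.

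**Figure D5:**
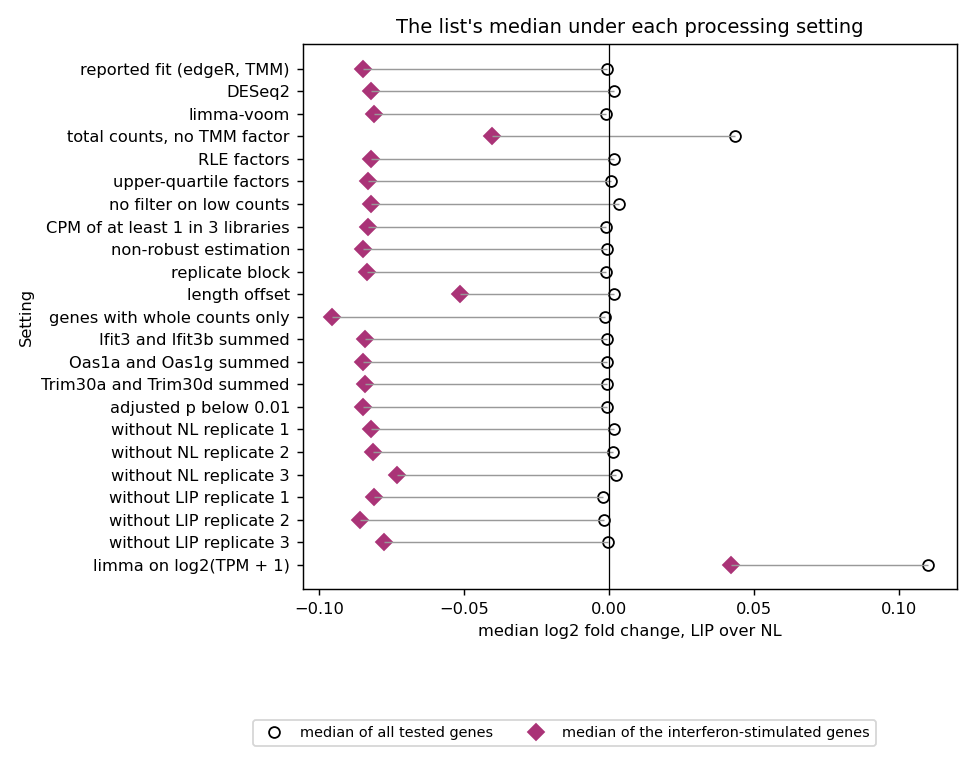
Median log2 fold change of LIP over NL (horizontal axis) over the members (filled diamonds) and over all tested genes (open circles) under the reported fit and each of 22 alternatives. The diamonds lie left of the circles in every row, at -0.085 in the reported fit, and both move right on the TPM scale, to 0.042 and 0.11.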

How the data were processed

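RNA from 6 libraries of sorted LSK cells was sequenced as 100 bp paired-end reads on a BGISEQ instrument, per the labels' protocols. Per the file headers, the deposited table gave estimated counts, FPKM and TPM for each gene and library. STAR, HTSeq and GRCm38 are named without versions or roles in the submitters' processing notes, and no source used here says which tool made the deposited estimated counts. Counts were whole for 86.3% to 86.8% of genes in a library, and for 19 of the 30 members in all libraries against 80.8% of tested genes. The authors' 6 columns of group means were not used.

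A test for whole counts had been planned, so counts were rounded. Under R 4.3.3, edgeR 4.0.16 was run with filterByExpr, TMM factors and its robust quasi-likelihood test of group, with Benjamini-Hochberg adjustment over the 12564 tested genes and a call at adjusted p below 0.05. Each log2 fold change is LIP over NL, and its SE comes from the test statistic. CPM is TMM-scaled. Levels between genes use the deposited TPM, and the length offset uses the deposited FPKM. Alternatives were DESeq2 1.42.0, limma-voom (limma 3.58.1), other scalings, filters and thresholds, a replicate block, a length offset and whole counts only. Others were summed pairs that appear to share reads and leaving out each library. Added after the data were seen were limma on log2(TPM + 1) and the summed pairs of Oas1a and Trim30a. Replicate libraries were checked for duplicates, and the tests were checked on simulated data. The simulation used a single dispersion for all genes and changed few genes, all well counted. It therefore does not show error rates in these data. Intervals and floors cover counting error and the spread between pools only.

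The members and the wider lists were chosen with earlier results of these data known. Values per library are given for each called member, the 5 members with the highest mean TPM and any uncalled member with a log2 fold change of at least 0.3; of the wider list, every called gene and the receptor chains, their kinases, Stat2, Irf9 and Irf7 are named, and 1 further gene that the rule names is not reported here. Promoters are those of called members and of the 4 uncalled members with the highest TPM. Other values given per library, the ratios and the promoters of Isg15 and 3 IFIT genes were chosen after their values were seen.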

Additional observations from a re-analysis of the deposited data

How the results depend on the processing

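Under 22 alternatives Rtp4 and Oas1a stayed called lower wherever they were tested, and Ifitm3 in all but the length offset and the TPM scale. Of the 30 members 3 fell under DESeq2, where 10.5% of all tested genes fell, and 2 on the TPM scale, where 4.30% fell. When 1 library was left out, 3 to 6 members fell, or 10% to 20%, against 12.2% to 14.3% of all tested genes. Without LIP-2, 3 members fell, or 10% against 12.8%. Members that rose numbered 2 with total counts, 1 with the length offset and 6 on the TPM scale, or 6.67%, 3.33% and 20% of the list, against 21.9%, 12.97% and 36.4% of all tested genes. The members' median log2 fold change was -0.0404 with total counts, -0.0514 with the length offset, -0.0953 over genes with whole counts only and 0.0422 on the TPM scale, and lay between -0.0857 and -0.0732 when 1 library was left out. All genes called numbered 2484 under DESeq2, 2493 at an adjusted p below 0.01, and 2987 to 3397 with 1 library left out. The wider list had 83 genes tested in the reported fit. Of these 20 rose with total counts, 7 at the stricter threshold and 28 on the TPM scale. The shares of all tested genes that rose there were 21.9%, 9.14% and 36.4%. In that list 9 fell under DESeq2, 9 with total counts, 9 at the stricter threshold and 3 on the TPM scale. The shares of all tested genes that fell there were 10.5%, 10.4%, 10.7% and 4.30%. Leaving out 1 library gave 9 to 10 rises and 10 to 15 falls in that list. The shares of all tested genes were then 11.3% to 12.6% and 12.2% to 14.3%. The causes of these shifts were not tested.

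Single estimates that changed sign were all uncalled in the reported fit except Ifi203 and Ifitm2. With total counts Bst2 stood at 0.0131 and Ddx58 at 0.0341. With the length offset Bst2 stood at 0.117, Ifih1 at -0.00576 and Ifitm2 at 0.0839 (called higher, adjusted p = 0.0338), and under limma-voom Ifit3b stood at 0.0144. On the TPM scale, which raised the median of all genes by 0.110, the values were 0.0999 for Bst2, 0.0256 for Cmpk2, 0.112 for Ddx58, 0.0168 for Ifi203, 0.0569 for Ifit3, 0.00987 for Ifit3b, 0.0329 for Ifitm2, 0.0254 for Oas2, 0.0423 for Oasl2, 0.0266 for Parp14, 0.0671 for Rsad2, 0.0421 for Trim30a and 0.104 for Zbp1. When 1 library was left out, the estimates ran from -0.0526 to 0.00654 for Bst2, -0.0403 to 0.00565 for Ddx58, -0.0151 to 0.0463 for Dhx58 and -0.0322 to 0.0978 for Ifih1. They ran from -0.235 to 0.162 for Ifit3, -0.440 to 0.167 for Ifit3b, -0.154 to 0.0225 for Oas2, -0.0910 to 0.00932 for Rsad2 and -0.177 to 0.0348 for Xaf1.

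Libraries of both groups carry the numbers 1 to 3. Deviations of same-numbered libraries had correlations of 0.0295, -0.0163 and -0.113. Those of differently numbered libraries ran from -0.112 to 0.132. With 3 libraries per group these values cannot settle whether the numbers mark pairs. With a replicate block 3729 genes were called and the members still counted 5 lower and 0 higher, with a median of -0.0833. Those were 16.7% and 0% of the list, against 15.8% and 13.9% of all tested genes.

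At this depth Ifit3b, with 4.38 to 12.2 counts in a library, is the member whose change is bounded least.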
